A study of Mus musculus with 22 samples.

Results

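Genes that mark or specify tuft cells, 10 in all, were followed across 16 lists of chromatin immunoprecipitation (ChIP-seq) peaks from mouse intestinal crypts and embryonic stem cells. The 10 genes were taken by name from the 21883 protein-coding genes considered: the regulators Pou2f3, Spib and Gfi1b, the chemosensory genes Trpm5, Gnat3, Gng13 and Sucnr1, and the marker or effector genes Dclk1, Chat and Avil. The study removed Pcgf6 from the small intestinal epithelium of C57BL/6 mice and compared wild-type (WT) with knockout (KO) crypts. Deletion was induced by Cre in either of 2 lines, named for the promoter that drives Cre: AhCre, induced with BNF (beta-naphthoflavone), and Villin, induced with Tamoxifen. The series text places collection 7 days after induction, in male mice of 8 to 12 weeks, in a sentence about RNA isolation, and whether it also holds for the ChIP-seq crypts is not stated. AhCre crypts had WT and KO lists for PCGF6, RING1B and H2AK119ub1. Villin crypts had WT and KO lists for RING1B, H2AK119ub1, CTCF and RAD21. WT E14 embryonic stem cells (ESC), an established mouse line, had a list for PCGF6 and one for RING1B. The other 6 of the 22 samples were input chromatin with no list analysed here.

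Tuft cells are rare cells of the gut epithelium that sense luminal metabolites through a taste-like cascade and start type 2 immunity by releasing IL-25. Polycomb repressive complex 1 (PRC1) places ubiquitin on a lysine of histone H2A (H2AK119ub1) through its catalytic subunit RING1A or RING1B, and PCGF6 is the subunit that defines the variant complex PRC1.6, which is brought to DNA by partners such as MGA-MAX and E2F6. CTCF binds DNA in a sequence-dependent way and stops cohesin, of which RAD21 is a subunit, so that both often mark the same sites.

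Every peak carried 1 score, the submitters' minus log10 p or q value (which of them is not stated), and no listed peak scored under 10. A gene without a peak was therefore one with no peak at a score of 10 or more, and the read depth behind a score is unknown. Each group was 1 library, so no difference here has a replicate check and none was tested. Crypts are bulk tissue in which tuft cells are a small part, and a peak found in few cells cannot be told apart from a weak peak in all of them. The peak lists do not measure expression, so the crypt label could not be set against marker genes. PCGF6 peaks numbered 17163 in AhCre WT and 4779 in AhCre KO crypts, so the KO list was not empty. RING1B peaks numbered 2368 and 1662 in AhCre and 4403 and 2464 in Villin, WT before KO. H2AK119ub1 peaks numbered 13175 and 16039 in AhCre, and 6219 and 5492 in Villin. The CTCF lists held 32651 and 32143 peaks, the RAD21 lists 20653 and 17762, and the ESC lists 7850 for PCGF6 and 5974 for RING1B. An absent RING1B or KO PCGF6 peak was thus read from much shorter lists than an absent CTCF peak.

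The 250 bases before a start site are shown for 6 of the genes, as examples of the peaks described below. Dclk1 and Chat had a RING1B peak over the start in ESC only. Gng13 and Trpm5 had H2AK119ub1 peaks at or near the start in crypts, and the Trpm5 start was also covered by CTCF and RAD21. Gfi1b had a strong CTCF peak over the start in Villin WT and an H2AK119ub1 peak 778 bases from it in AhCre WT. Sucnr1 had no peak at all. The peaks of Trpm5 and Gfi1b thus do not set these genes apart by antibody. The sequences are from RefSeq on GRCm38.p6 (the mm10 assembly), written along the gene's own strand, with each CpG in capitals. They lie at chr3:55242114-55242363 (plus strand, the first of 2 starts of Dclk1), chr14:32465910-32466159 (minus, Chat), chr17:25716922-25717171 (plus, the first of 2 starts of Gng13), chr7:143094643-143094892 (minus, Trpm5), chr2:28621983-28622232 (minus, Gfi1b) and chr3:60081619-60081868 (plus, Sucnr1).
Dclk1: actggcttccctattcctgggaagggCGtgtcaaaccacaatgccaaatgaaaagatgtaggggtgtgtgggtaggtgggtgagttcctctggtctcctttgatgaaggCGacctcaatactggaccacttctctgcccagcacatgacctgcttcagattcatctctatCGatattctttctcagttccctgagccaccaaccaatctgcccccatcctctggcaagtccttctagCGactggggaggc
Chat: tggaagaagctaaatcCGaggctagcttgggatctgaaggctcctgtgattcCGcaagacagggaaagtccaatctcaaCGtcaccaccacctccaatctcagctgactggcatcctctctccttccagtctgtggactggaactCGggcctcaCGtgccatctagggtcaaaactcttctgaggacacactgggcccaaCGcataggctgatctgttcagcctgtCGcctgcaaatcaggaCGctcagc
Gng13: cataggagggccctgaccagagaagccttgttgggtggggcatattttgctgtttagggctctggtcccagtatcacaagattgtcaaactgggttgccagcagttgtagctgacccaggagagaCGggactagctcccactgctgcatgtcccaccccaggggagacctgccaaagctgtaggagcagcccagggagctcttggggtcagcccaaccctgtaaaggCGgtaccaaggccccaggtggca
Trpm5: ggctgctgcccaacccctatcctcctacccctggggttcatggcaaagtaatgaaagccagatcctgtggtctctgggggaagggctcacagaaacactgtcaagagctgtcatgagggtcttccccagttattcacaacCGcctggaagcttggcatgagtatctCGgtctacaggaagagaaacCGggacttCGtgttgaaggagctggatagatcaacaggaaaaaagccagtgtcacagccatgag
Gfi1b: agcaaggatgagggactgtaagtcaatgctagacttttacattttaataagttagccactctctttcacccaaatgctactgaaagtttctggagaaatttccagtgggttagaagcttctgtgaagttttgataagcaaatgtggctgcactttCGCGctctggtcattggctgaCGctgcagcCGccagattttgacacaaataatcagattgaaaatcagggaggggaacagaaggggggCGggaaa
Sucnr1: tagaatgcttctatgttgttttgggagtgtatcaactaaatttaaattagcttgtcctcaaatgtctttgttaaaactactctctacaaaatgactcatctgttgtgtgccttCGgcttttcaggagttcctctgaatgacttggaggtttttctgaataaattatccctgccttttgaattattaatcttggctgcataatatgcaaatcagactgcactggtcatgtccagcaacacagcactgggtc
These stretches held few CpGs: 4 for Dclk1, 8 for Chat, 2 for Gng13, 4 for Trpm5, 5 for Gfi1b and 1 for Sucnr1, against a median of 10 over 21262 promoters of 17491 protein-coding genes.

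Start sites were listed for 9 of the 10 genes, 11 in all, and 10 of the 11 lay under the median of all promoters in the ratio of observed to expected CpG (median 0.530). The ratio was 0.0926 for Avil, 0.0931 for the first start of Gng13, 0.0959 for Spib and 0.111 for Sucnr1. It was 0.193 for Gnat3, 0.230 for Trpm5, 0.235 and 0.293 for the starts of Dclk1, 0.421 for Gfi1b and 0.433 for Chat. The exception was the second start of Gng13, with 25 CpGs, a ratio of 0.837 and 69.2% G and C. CpG-rich promoters are where PRC1 is usually found. The second Gng13 start lay 34 bases from an AhCre WT H2AK119ub1 peak and inside the AhCre KO one. The CpG-poor first start lay 20 bases from another AhCre WT peak and inside the same AhCre KO peak. It also lay inside the Villin KO peak, which did not cover the second start. The E-box CACGTG, the letters bound by MGA-MAX among other factors, occurred before the start of Chat and of none of the other 8 genes, and in 6.63% of all promoters. The E2F letters TTCCCGC, searched on both strands, occurred before Gfi1b and in 4.96% of all promoters. A CTCF core, GGNGGCAG on either strand, occurred before the first start of Dclk1 and the second of Gng13 and in 10.4% of all promoters, and not before Gfi1b or Trpm5, whose starts a WT CTCF peak covered. These matches describe letters in a 250-base window and not binding.

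**Figure D1:**
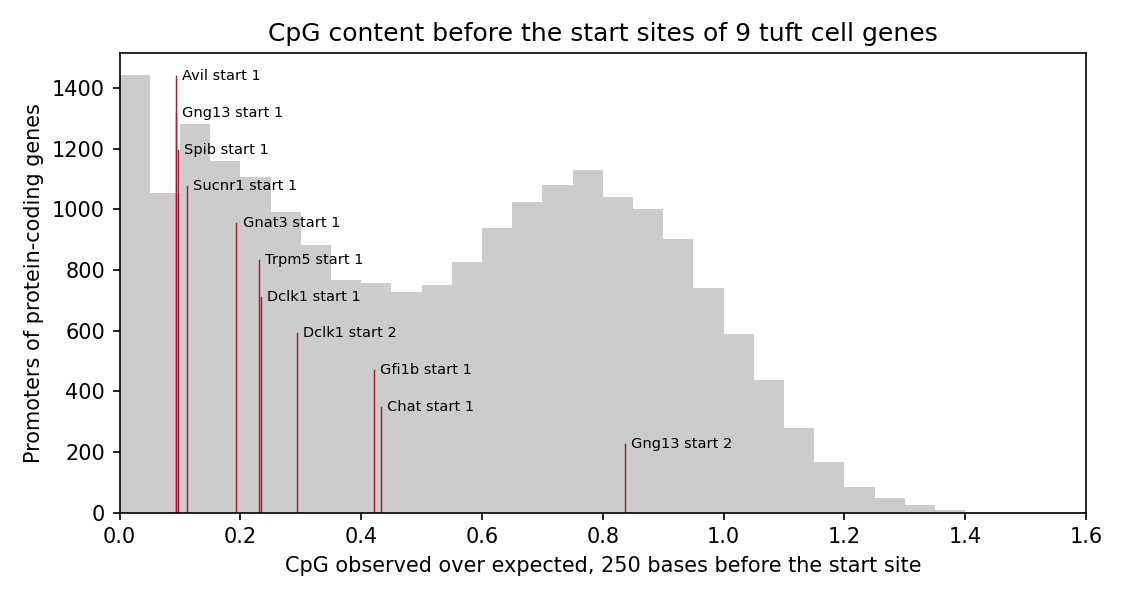
Histogram of the ratio of observed to expected CpG (x axis) over 21262 promoters of protein-coding genes (y axis, number of promoters per bin of the ratio), with a red line at each of the 11 start sites of the 9 genes; the height of a line only separates the names. All lines but the second start of Gng13, at 0.837, lie under the median of 0.530.

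Peaks were placed in 3 zones: within 1 kb of either end of the gene, in the gene body, or within 10 kb of the gene. Pou2f3 had peaks of PCGF6, RING1B, H2AK119ub1 and CTCF at 1 of its ends, the only one of the 10 genes with all 4 in the crypt lists. Spib was the other gene with a PCGF6 peak at an end. H2AK119ub1 peaks stood at the ends of Pou2f3, Gfi1b, Trpm5 and Gng13 in AhCre WT crypts. CTCF or RAD21 peaks lay within the gene or 10 kb of 7 of the 10 genes in both genotypes. Gnat3 and Sucnr1 had no peak in any zone in any of the 16 lists, as had 20.6% of all genes. Those 2 genes and Avil had no peak within 1 kb of an end in any list, as had 37.2% of all genes.

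**Figure D2:**
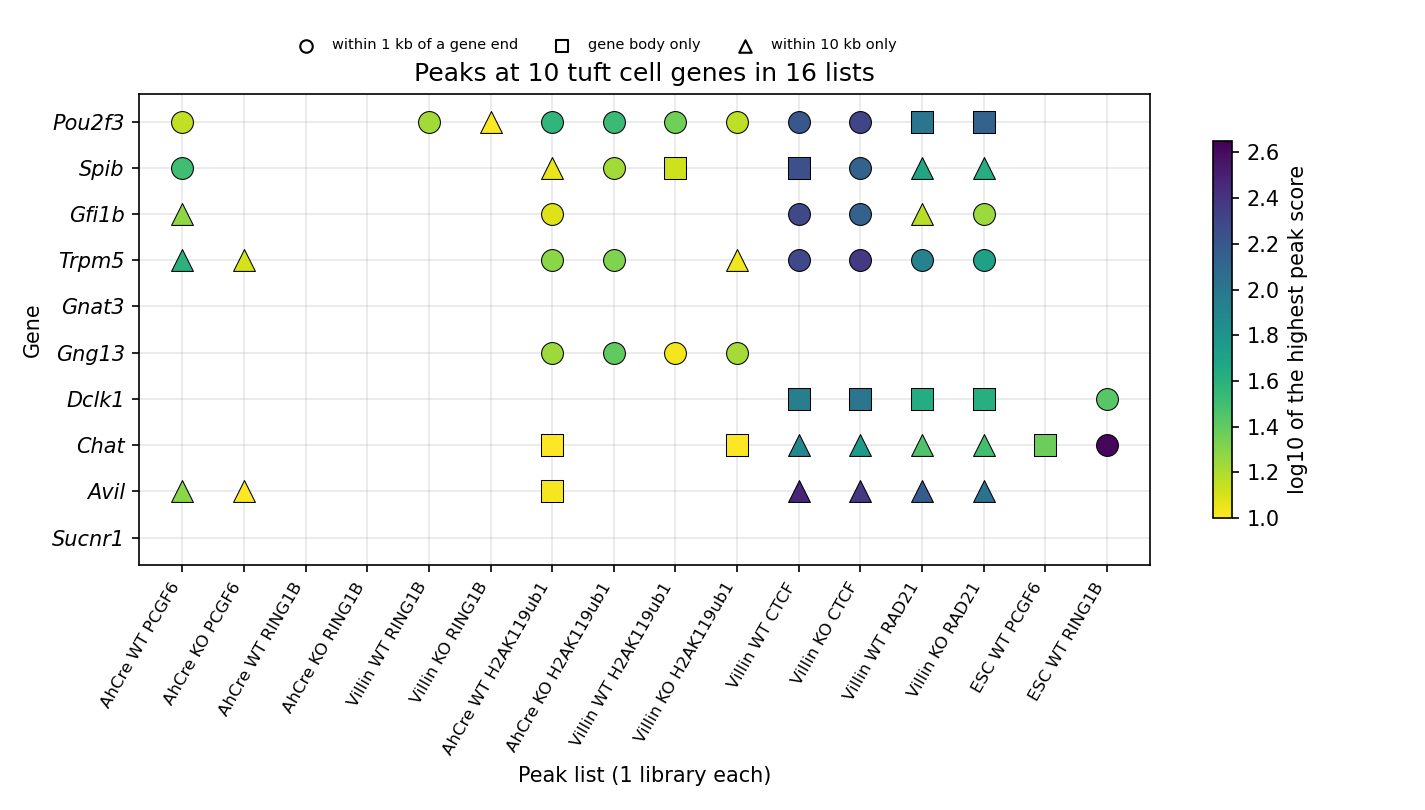
Each column is 1 peak list and each row 1 gene. A circle marks a peak within 1 kb of a gene end, a square a peak in the gene body but at no end, a triangle a peak within 10 kb only, and the colour gives log10 of the highest score among all peaks in the gene or within 10 kb. Rows of Gnat3 and Sucnr1 are empty, and the circles of Pou2f3 run through PCGF6, RING1B, H2AK119ub1 and CTCF.

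Pou2f3 (chr9:43123927-43205755) encodes the POU-domain factor without which tuft cells do not form. In AhCre WT crypts a PCGF6 peak with a score of 14.3 lay across its higher-coordinate end, at chr9:43205228-43206277, and a weaker one, 10.9, in the gene body at chr9:43150443-43151417. Neither had an overlapping peak in AhCre KO crypts. In Villin WT crypts a RING1B peak with a score of 17.1 covered the same end, at chr9:43205446-43206356, and Villin KO crypts had none there. The single RING1B peak that Villin KO crypts had within 10 kb, with a score of 10.2, lay beyond the opposite end at chr9:43115980-43116633, inside the neighbouring gene Tlcd5 and near its higher-coordinate end. Neither AhCre list had a RING1B peak within 10 kb of Pou2f3, and the nearest in AhCre WT was 179 kb away.

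H2AK119ub1 stayed listed at the Pou2f3 end in both genotypes of both lines. The end peak scored 36.9 in AhCre WT (chr9:43199760-43206766) and 33.8 in AhCre KO (chr9:43199967-43206826). It scored 22.8 in Villin WT (chr9:43203595-43206622), where a second peak of 11.6 lay beside it (chr9:43201480-43202960). Villin KO had a single wider peak of 12.6 (chr9:43201023-43206828) that spanned both. The KO score was thus lower in both lines while the KO peak kept its place, but in Villin the scores belong to peaks of unlike extent. Over the gene body and 10 kb on each side, H2AK119ub1 peaks covered 17.5 kb in AhCre WT, 20.4 kb in AhCre KO, 9.69 kb in Villin WT and 7.71 kb in Villin KO. Cover was higher in KO in AhCre and lower in KO in Villin. In each list it exceeded that of at least 98.66% of all genes, in a gene span that is itself long. The mean score of these peaks was 15.1 in AhCre WT, 16.9 in AhCre KO, 13.2 in Villin WT and 13.3 in Villin KO.

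CTCF peaks at Pou2f3 matched one for one between the Villin genotypes. The one at the end scored 25.6 in WT and 11.6 in KO. In the gene body, the CTCF peak at chr9:43141251-43142313 scored 158 in WT and 204 in KO, and its RAD21 partner 102 and 70.9. A second body peak scored 34.8 and 53.1 for CTCF and 33.1 and 30.1 for RAD21. Beyond the end, at chr9:43210409-43211718, CTCF scored 160 and 157 and RAD21 94.6 and 136. The end peak itself had no RAD21 partner in either genotype.

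**Figure D3:**
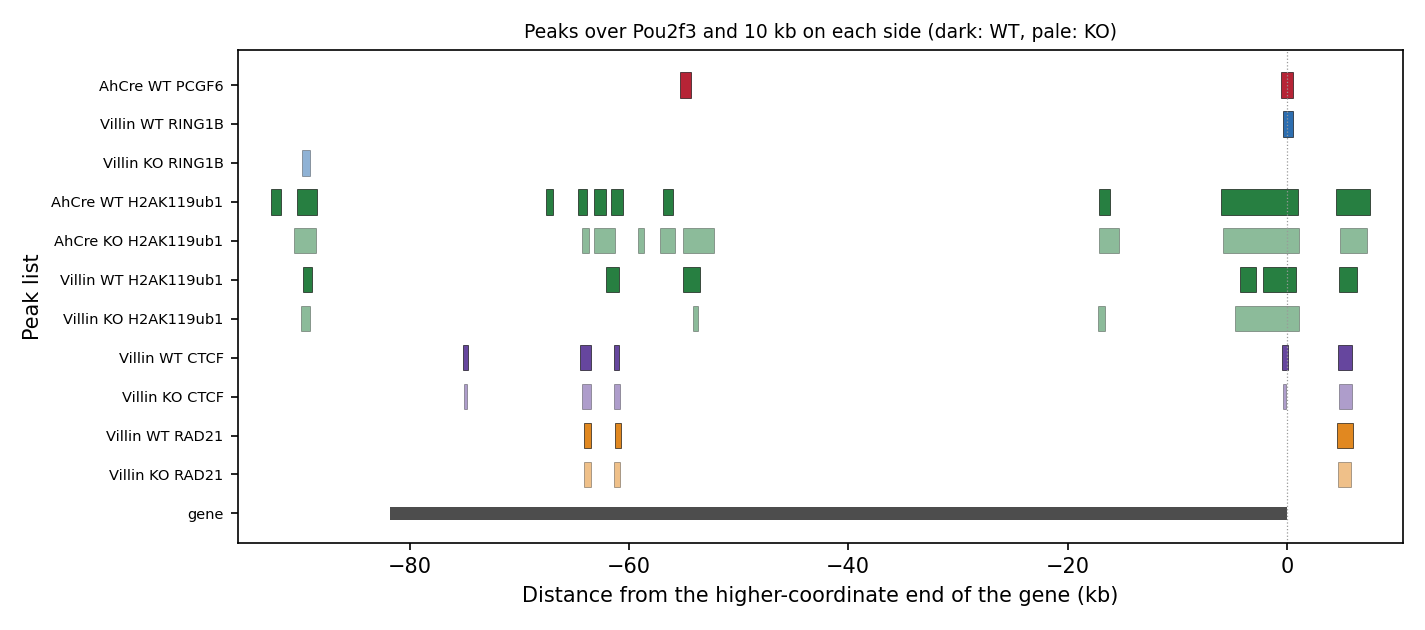
Peaks over Pou2f3 (grey bar) by distance in kb from the higher-coordinate end of the gene (x axis), 1 row per list that has a peak here (y axis), with PCGF6 in red, RING1B in blue, H2AK119ub1 in green, CTCF in purple and RAD21 in orange; dark bars are WT and pale bars KO. PCGF6 and RING1B bars stand at 0 in WT rows and not in KO rows, whereas H2AK119ub1 and CTCF bars stand at 0 in both.

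Spib (chr7:44525995-44532087, minus strand) encodes an ETS factor of tuft cells, M cells and B cells. Its PCGF6 peak in AhCre WT crypts, at chr7:44524600-44525759, had a score of 32.2 and no counterpart in KO. That peak lay beyond the downstream end of Spib and covered the start of the next gene, Mybpc2 (a muscle myosin-binding protein), 510 bases from its centre, so it was not at the Spib promoter. In AhCre KO crypts an H2AK119ub1 peak with a score of 17.0, at chr7:44531967-44534075, covered the Spib start, and AhCre WT crypts had none there. That peak also lay within 1 kb of the end of Pold1. In Villin crypts the only H2AK119ub1 peak was in WT, inside the gene at chr7:44528467-44529385, with a score of 13.4. No RING1B list had a peak within 10 kb. A CTCF peak in the gene body scored 177 in WT and 136 in KO, and another, 153 and 121, lay downstream with RAD21 at 47.6 and 42.5.

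Gfi1b (chr2:28609450-28621982, minus strand) encodes a zinc-finger repressor shared by tuft cells and blood lineages. Its start was covered by a CTCF peak in Villin WT, at chr2:28621810-28623422, with a score of 196. The KO counterpart, with a score of 139, overlapped it but stopped 296 bases short of the start. A RAD21 peak under this CTCF site was listed in KO only, with a score of 17.6. A different RAD21 peak, 6031 bases upstream, was listed in WT only, with a score of 15.1. An H2AK119ub1 peak 778 bases upstream of the start, at chr2:28622760-28623453, scored 12.2 in AhCre WT and was absent from AhCre KO and from both Villin lists. The one PCGF6 peak, with a score of 19.0 in AhCre WT and none in KO, lay 7571 bases upstream at chr2:28629553-28630360.

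Among the chemosensory genes, Trpm5 (chr7:143071529-143094642, minus strand) encodes the cation channel that depolarises the cell at the end of the taste cascade. In AhCre WT crypts an H2AK119ub1 peak with a score of 14.4, at chr7:143091751-143094670, covered its start. In AhCre KO the same stretch held peaks of 13.1 and 17.0, and neither reached the start. H2AK119ub1 peaks over the gene and 10 kb on each side numbered 5 in WT and 8 in KO and covered 8.50 and 9.16 kb. Villin WT crypts had none, and Villin KO had 1, with a score of 10.9, upstream of the gene. CTCF stood at the Trpm5 start in both Villin genotypes with scores of 131 and 122, and RAD21 with 83.3 and 50.9. The only PCGF6 peak within 10 kb of Trpm5 scored 39.2 in WT and 12.8 in KO and covered the start of the next gene, Tssc4. No RING1B peak lay within 10 kb in any list.

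Gng13 (chr17:25717172-25719102, plus strand) encodes the gamma subunit of the taste G protein, gustducin. It had H2AK119ub1 in all 4 crypt lists and no peak of any other antibody. AhCre WT had a pair of peaks scoring 14.9 and 17.3, at chr17:25714923-25717152 and chr17:25717562-25719195. AhCre KO had 1 wider peak with a score of 25.1, at chr17:25715093-25719628, that overlapped both. The Villin WT peak, with a score of 10.6, lay inside the gene, and the Villin KO peak, with a score of 16.6, lay upstream and over the first start, so the 2 did not overlap. The length covered was 3.86 and 4.54 kb in AhCre and 0.582 and 1.95 kb in Villin, WT before KO, higher in KO in both lines.

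Gnat3 (chr5:17962570-18019668), the alpha subunit of gustducin, and Sucnr1 (chr3:60081869-60087566), the succinate receptor, were bare. The nearest peaks to Gnat3 were CTCF and RAD21, about 23.4 kb away, with CTCF scores of 104 in WT and 73.4 in KO and RAD21 scores of 25.0 and 39.7. The nearest to Sucnr1 were CTCF and RAD21 peaks at 24.3 to 24.5 kb, with scores of 75.0 and 71.4 for CTCF and 49.1 and 45.4 for RAD21. The nearest AhCre WT PCGF6 peak was 542 kb from Gnat3 and 81.4 kb from Sucnr1. The nearest AhCre WT H2AK119ub1 peak was 312 kb from Gnat3 and 1918 kb from Sucnr1. Of the 4 chemosensory genes, those with an H2AK119ub1 peak at an end were therefore Trpm5 and Gng13.

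Dclk1 (chr3:55242303-55539068), a doublecortin-like kinase used as the classical tuft cell marker, and Chat (chr14:32408203-32465909), which makes acetylcholine, had RING1B at the start in ESC and not in crypts. The ESC RING1B peak at Dclk1, chr3:55242335-55243377, had a score of 27.4 and covered the first start. The ESC RING1B peak at Chat, chr14:32461402-32466540, had a score of 417 and covered the start of Chat and that of Slc18a3, the vesicular acetylcholine transporter gene nested in Chat. An ESC PCGF6 peak with a score of 23.5 lay inside it, over Slc18a3. Crypts had no PCGF6 or RING1B peak at either gene in any list. Dclk1 also had no H2AK119ub1 peak, the nearest in AhCre WT being 188 kb away. Within Chat, H2AK119ub1 was listed just above the floor, with a score of 10.1 in AhCre WT and 10.0 in Villin KO, and in neither AhCre KO nor Villin WT. The Dclk1 gene body held 3 CTCF peaks in Villin WT. The strongest scored 89.6 in WT and 103 in KO, with RAD21 at 43.1 and 41.1, another scored 62.4 and 51.6, and the weakest, 22.7, was listed in WT only. CTCF upstream of Chat scored 78.2 and 57.5, with RAD21 at 28.9 and 31.4.

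Avil (chr10:127000065-127020994, plus strand) encodes advillin, an actin-bundling protein of the tuft. No peak lay at its ends. PCGF6 peaks in AhCre WT flanked it on both sides, with scores of 16.1 at chr10:126990280-126991042 and 19.3 at chr10:127030410-127031293. The first had a KO counterpart with a score of 10.3, and the second, which covered the start of Tsfm, had none. Both coincided with CTCF (303 and 224, then 247 and 243) and RAD21 (151 and 108, then 52.9 and 37.4), given as WT before KO. One H2AK119ub1 peak, in AhCre WT only, lay in the gene body with a score of 10.6.

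**Figure D4:**
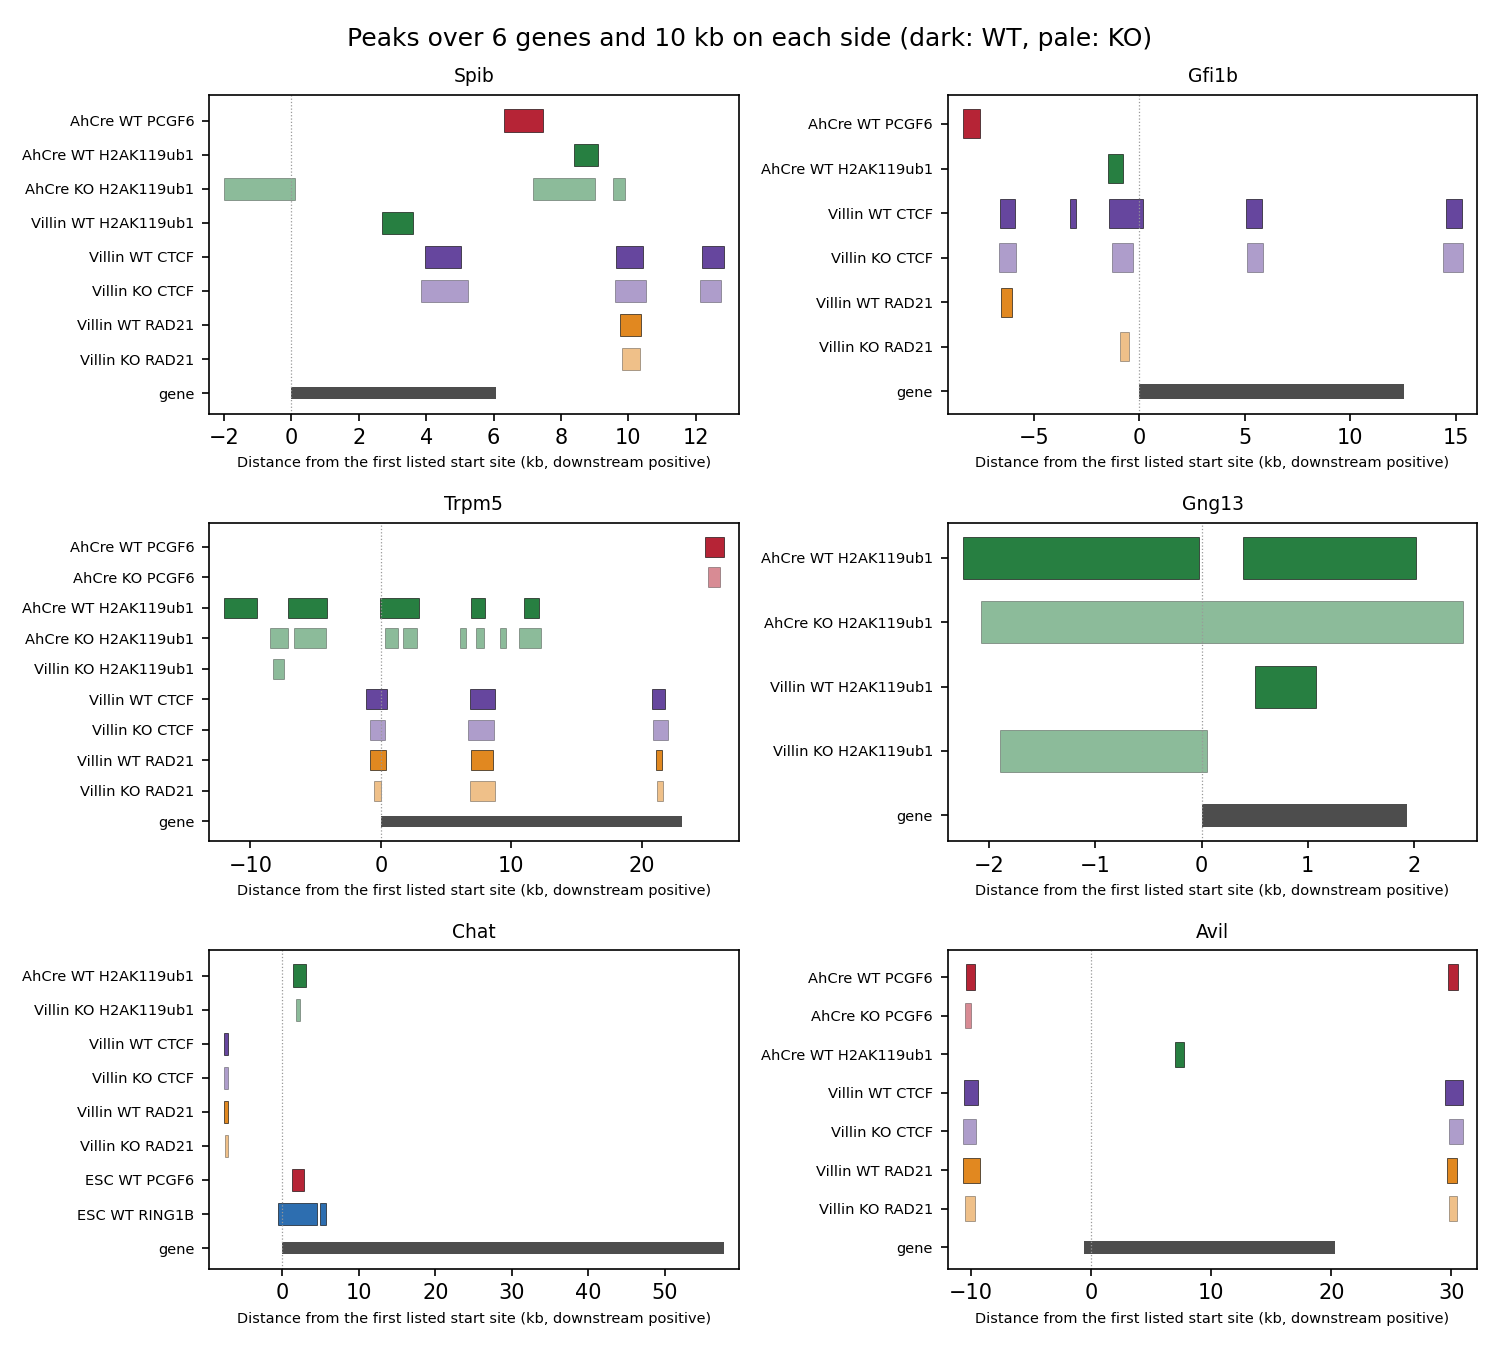
Peaks over Spib, Gfi1b, Trpm5, Gng13, Chat and Avil, each panel by distance in kb from the first listed start site (x axis, dotted line at 0, downstream positive), 1 row per list with a peak (y axis), PCGF6 in red, RING1B in blue, H2AK119ub1 in green, CTCF in purple and RAD21 in orange; dark bars are WT and pale bars KO. Crypt PCGF6 bars lie outside the gene in every panel that has one, and each CTCF bar has a counterpart in the other genotype except 1 WT bar upstream of Gfi1b (score 12.7).

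Counted over the 10 genes, PCGF6 peaks within 1 kb of a gene end in AhCre WT crypts belonged to 2 genes, Pou2f3 and Spib, against 39.9% of all genes. Both were absent in KO, where the background share was 13.7% and where 64.4% of all genes with a WT peak lost it. Including the gene body and 10 kb, 5 of 10 genes had a WT peak (55.9% of all genes) and 2 a KO peak (24.3%). None of the 9 genes with a listed start had a PCGF6 peak within 1 kb of it, against 40.6% of 17491 genes. The gene left out of this count was Pou2f3, which had a PCGF6 peak across a gene end but no listed start. Whether that peak lay at its start could not be read from the listing. Of the 7 PCGF6 peaks in the genes or within 10 kb, 5 had no overlapping KO peak, and 73.1% of all WT PCGF6 peaks had none. The share of these peaks without a KO counterpart was near that of all PCGF6 peaks, and with so few genes no more is read from it.

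AhCre RING1B lists had no peak at the end of any of the 10 genes in WT (7.73% of all genes) or KO (4.89%), or within 10 kb (12% and 7.68%). Villin RING1B was at 1 gene end in WT, Pou2f3 (14.2% of all genes), and at none in KO (7.61%), with 53.7% of all WT gene-end peaks lost. One gene, Pou2f3, had a Villin RING1B peak in the gene or within 10 kb in each genotype (21.7% and 12% of all genes), and those were different peaks. Where 1 gene makes up the count, the share has no weight of its own.

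H2AK119ub1 in AhCre was at the ends of 4 genes in WT (16% of all genes), Pou2f3, Gfi1b, Trpm5 and Gng13, and of 4 in KO (17.7%), with Spib in place of Gfi1b. The WT peak of Gfi1b was absent in KO, as for 12.9% of genes with a WT peak, and that of Spib was present in KO only, as for 4.26% of genes without one in WT. In Villin it was at 2 gene ends in each genotype, Pou2f3 and Gng13 (10.4% and 8.84% of all genes), with no loss among them (29.3% of all genes with a WT peak). Gng13 counted as kept because each genotype had a peak in the zone, although those peaks did not overlap. Over the gene and 10 kb, 7 genes had a peak in AhCre WT (27.6% of all genes) and 4 in KO (29.8%), and 3 had one in Villin WT (18.5%) and 4 in KO (16.3%). Scores were under 15 for 16 of 21 of these peaks in AhCre WT (58.9% of all peaks in the list), 12 of 21 in AhCre KO (58.7%), 7 of 8 in Villin WT (66.4%) and 6 of 7 in Villin KO (70.2%). In AhCre 5 of 21 WT peaks had no KO counterpart (30.8% of all WT peaks), and 7 of 21 KO peaks had no WT counterpart (41.3%). In Villin 4 of 8 WT and 4 of 7 KO peaks had none (45.2% and 33.8%). Pou2f3 alone had 10 of these peaks in AhCre WT, 9 in AhCre KO, 6 in Villin WT and 4 in Villin KO, and Trpm5 had 5 and 8 in AhCre. The peak counts thus rest mainly on those genes and do not describe all 10.

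**Figure D5:**
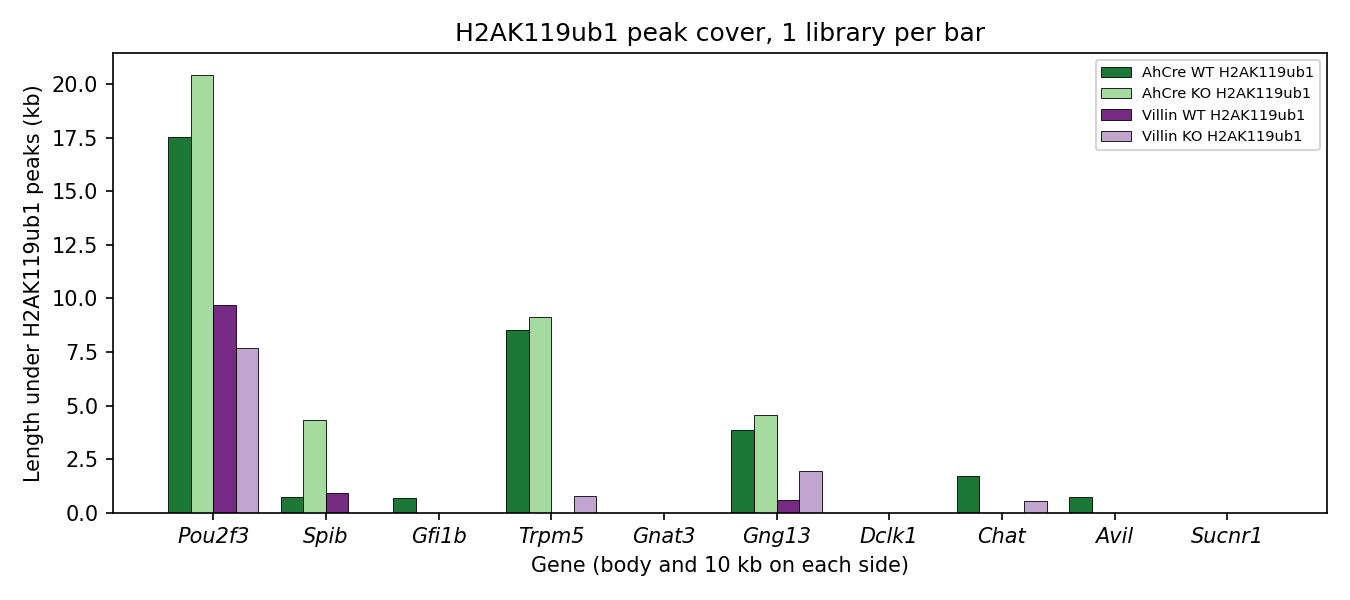
Length in kb under H2AK119ub1 peaks (y axis, from 0) in the body and 10 kb on each side of each gene (x axis), 1 bar per library: AhCre WT dark green, AhCre KO pale green, Villin WT dark purple, Villin KO pale purple. Pou2f3 has the longest bars in all 4 libraries (17.5, 20.4, 9.69 and 7.71 kb), and Gnat3, Dclk1 and Sucnr1 have none. As a share of the span, Trpm5 and Gng13 exceeded Pou2f3 in AhCre WT (19.7% and 17.6% against 17.2%) and AhCre KO (21.2% and 20.7% against 20.1%). Gng13 also did in Villin KO (8.87% against 7.57%), while Pou2f3 was highest in Villin WT (9.52%).

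Ordered by the highest AhCre WT H2AK119ub1 score within the gene or 10 kb, the genes ran Pou2f3 (36.9), Trpm5 (19.3, upstream), Gng13 (17.3), Gfi1b (12.2), Spib (11.4, downstream), Avil (10.6) and Chat (10.1). The largest steps came after Pou2f3 and Gng13, and with 1 library the spread that would separate them is unknown.

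CTCF was at the ends of 3 genes in Villin WT (25.5% of all genes), Pou2f3, Gfi1b and Trpm5, and of 4 in KO (23.2%). The fourth, Spib, entered because its KO peak was wider and reached the 1 kb window, while the WT peak lay just outside it. No WT end peak was absent in KO (12% of genes with a WT peak). RAD21 was at 1 end in WT, Trpm5 (22.2% of all genes), and at 2 in KO, Trpm5 and Gfi1b (14%), with none lost (41.1%) and Gfi1b gained (1.62%). Within the gene or 10 kb, 7 genes had CTCF in each genotype (65.3% and 64.7% of all genes) and 7 had RAD21 (54.1% and 48.6%). Of 22 CTCF peaks in WT, 20 had a KO counterpart (9.18% of all WT CTCF peaks had none), and of 12 RAD21 peaks 11 had (24.4% had none).

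All 12 RAD21 peaks in WT overlapped a CTCF peak, and so did all 12 in KO, as did 87.2% and 93.5% of all RAD21 peaks. Of 7 PCGF6 peaks, 3 overlapped CTCF and 2 RAD21 (32.3% and 33.9% of all PCGF6 peaks), 1 overlapped AhCre H2AK119ub1 (13.4%) and 0 overlapped AhCre RING1B (7.20%). The one with H2AK119ub1 was at the Pou2f3 end, and the 2 with RAD21 were those that flank Avil. CTCF and AhCre H2AK119ub1 peaks overlapped 7 times among 22 CTCF peaks (8.25% of all CTCF peaks), at Pou2f3, Gfi1b and Trpm5. Within the Villin line, CTCF and H2AK119ub1 peaks in WT overlapped at 3 of the 22, all at Pou2f3 (4.13%). The libraries of these overlaps were from different Cre lines where PCGF6 or AhCre H2AK119ub1 met CTCF.

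In ESC, PCGF6 was at the end of 0 of the 10 genes (22.7% of all genes) and within the gene or 10 kb of 1, Chat (35.5%). RING1B was at the ends of Dclk1 and Chat (17.8%), and of no further gene within 10 kb (26%). Pou2f3, which had RING1B and PCGF6 peaks in WT crypts, had neither in ESC. Cell type and experiment differ together between ESC and crypts and cannot be told apart.

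Of 61 further tuft cell genes listed, 58 had a name match, and 26 of those (44.8%, against 39.9% of all genes) had a PCGF6 peak at a gene end in AhCre WT crypts, 16 of which were absent in KO (64.4% of all genes with a WT peak). The median of their highest end scores was 23.3, against 21.4 over all genes with a peak. RING1B was at 11 of 58 in AhCre WT (19.0%, against 7.73% of all genes) and 17 in Villin WT (29.3%, against 14.2%). By list, AhCre WT before Villin WT, these were 6 and 7 of 9 regulator genes and 2 and 2 of 12 taste cascade genes. The rest were 0 and 1 of 6 cholinergic, 1 and 1 of 11 effector, and 2 and 6 of 20 marker genes. The regulator list thus held 6 of the 11 genes in AhCre WT and 7 of the 17 in Villin WT. The lists were chosen with earlier results of these data known, so these shares are not read as a trait of tuft cell genes. The median RING1B score was 25.1 in AhCre, against 16.3 over all genes with a peak, and 15.9 in Villin, against 14.7. H2AK119ub1 was at 21 in AhCre WT (36.2%, against 16%) and 13 in Villin WT (22.4%, against 10.4%), with median scores of 15.7 against 17.9 over all genes with a peak, and 17.7 against 14.6. CTCF was at 18 in Villin WT (31.0%, against 25.5% of all genes) and RAD21 at 19 (32.8%, against 22.2%), with median scores of 90.3 against 79.8, and 14.3 against 20.7.

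The strongest RING1B among these was at the transcription factor genes. Hmx2, a homeobox gene, scored 785 in AhCre WT and 597 in KO, and 569 and 410 in Villin. Gfi1, the paralog of Gfi1b and a goblet and Paneth cell regulator, scored 102 and 181 in AhCre and 224 and 143 in Villin. Atoh1, the secretory lineage factor, scored 147 and 127, and 129 and 84.8. In the taste cascade, Plcb2 (phospholipase C beta 2, upstream of Trpm5) had RING1B at 25.8 and 15.0 in AhCre and 48.2 and 22.3 in Villin, and H2AK119ub1 at 51.5 and 56.1, and 39.6 and 25.9.

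RING1B end peaks were absent in KO for 4 of the 11 genes in AhCre (44.7% of all genes with a WT peak) and 4 of the 17 in Villin (53.7%). Nrgn (25.1 in AhCre, 15.9 in Villin) and Ltc4s, the leukotriene C4 synthase of the effector response (10.3 and 12.5), were absent in KO in both lines. Sox4, a tuft cell lineage factor, with a score of 14.7, and Itpr2, an IP3-gated calcium channel, with 10.3, were absent in AhCre KO only. In Villin KO, Itpr2 instead had a peak of 11.4 that WT lacked, and Sox4 had peaks of 14.7 in WT and 12.2 in KO. Slc44a4, a choline transporter family gene (11.4), and Sh2d6 (12.5) were absent in Villin KO. H2AK119ub1 was absent in AhCre KO at 4 of 21 genes (12.9% of all genes with a WT peak), Cd24a (13.2), Ptpn6 (12.2), Vav1 (12.0) and Slc18a3 (10.1). The Slc18a3 peak is the one described above within Chat, and in Villin that gene had a peak in KO only (10.0). H2AK119ub1 was absent in Villin KO at 5 of 13 (29.3%), Itpr2 (17.7), Nradd (12.7), Ltc4s (11.5), Nrgn (10.6) and 1 other gene. In AhCre the named genes had it in both genotypes. WT and KO scores there were 15.7 and 18.7 for Itpr2, 24.0 and 19.5 for Nradd, 14.7 and 13.7 for Ltc4s, and 14.9 and 29.9 for Nrgn.

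Genes were also compared by the presence and absence of end peaks over all 16 lists. Pou2f3 shared its pattern with 1 other gene, Actl10, and Gfi1b with 1, Lrrc71. Spib shared its pattern with 4 genes, Arhgef11, Mideas, Pcgf2 and Pla2g2e. Trpm5 shared its pattern with 37 genes, Gng13 with 86, and Dclk1 and Chat, which have the same pattern, with 287. The empty pattern of Gnat3, Avil and Sucnr1 was that of 8143 other genes.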

How the data were processed

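ChIP-seq peaks were analysed as the authors deposited them, 1 list for each of 16 samples, with 6 input samples not used. The deposited scores are −log10 p or q values, and no list holds a peak with a score under 10. Peak numbers in the lists have gaps, and 40.5% to 96.5% of the numbered peaks are present. Per the submitters' processing notes, the tools were Bowtie 1.2.2 and 1.1.2 and MACS2 2.1.1, with builds mm10, dm6 and hg38. Per the labels, a WT crypt input served as reference for peak calling and H2AK119ub1 chromatin carried a 5% S2 spike. Whether the spike entered the peak scores is not given in the sources used here. The ESC description lines exchange the PCGF6 and RING1B names, and titles and antibody labels were used.

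Gene positions and 17491 genes with start sites came from RefSeq tables (mm10), and unplaced or mitochondrial peaks were not used. A peak belonged to a gene within 1 kb of either end, in the body, or within 10 kb. A WT peak was lost when KO had no peak in the zone and none overlapping it by 1 bp. Genes named were the 10, neighbours nearer to a peak, listed tuft genes with the highest scores or a lost RING1B or H2AK119ub1 peak (the ones described are examples), and genes sharing a pattern with 5 or fewer. Some genes the rule names are not reported here. The members and lists were chosen with earlier results of these data known. Python 3.11.15, numpy 2.4.6, pandas 2.3.3 and bedtools 2.31.1 were used. Overlaps were checked with bedtools, which differed in 0 of 7 contrasts, and on simulated data, where 200 of 200 planted peaks had the right status. There was 1 library per group, so no test was made. Alternatives were other windows, a score of 15, lists of equal length and overlap of 50%.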

Additional observations from a re-analysis of the deposited data

Results flagged for a closer look

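The H2AK119ub1 peak of Spib, counted in the gene body and 1 kb around it, was listed in opposite genotypes of the Cre lines: with a score of 17.0 in AhCre KO (and none in AhCre WT) and 13.4 in Villin WT (and none in Villin KO). These peaks stood at different places, over the start in one and inside the gene in the other. For Chat the peak was listed with 10.1 in AhCre WT and 10.0 in Villin KO and in neither other list, both just above the lowest score of 10. Each is 1 library against 1, and the difference between the lines was not tested.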

How the results depend on the processing

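Of 101 recomputed counts over the 10 genes, 76 stayed within 1.5 times the reported value and 25 moved. Many of the 76 were counts of 0 that stayed 0, among them every count for AhCre RING1B. A WT count of 0 cannot rise in a narrower window or at a higher score, so the 76 do not measure stability. With the gene body and 10 kb on each side as the window, the genes with a WT peak numbered 5 for AhCre PCGF6, 7 for AhCre H2AK119ub1, 7 for CTCF and 7 for RAD21, the genes with an ESC PCGF6 peak 1, and the genes that lost a peak 0 for Villin RING1B, 3 for AhCre H2AK119ub1 and 1 for Villin H2AK119ub1; a wider window admits more peaks by construction. At a score of 15 or more, WT counts were 1 for AhCre PCGF6, 2 for AhCre H2AK119ub1 and 1 for Villin H2AK119ub1, and losses 1 for AhCre PCGF6, 0 for AhCre H2AK119ub1, 1 for Villin H2AK119ub1 and 1 for CTCF. With lists of equal length, AhCre PCGF6 had 1 gene in WT and 1 loss. With a window of 500 bp AhCre H2AK119ub1 had 0 losses, and with 2 kb it had 2 and ESC PCGF6 had 1 gene. Within 1 kb of a start site only, a setting chosen after seeing the data in which Pou2f3 has no listed start, AhCre PCGF6 had 0 genes and 0 losses, Villin RING1B 0 genes and 0 losses, and Villin H2AK119ub1 1 gene. Requiring 50% of the WT peak to be overlapped moved none of 7 counts, but it could not have moved any. Each gene with a WT end peak either had a KO peak in the same zone, which counts as kept without overlap, or had already lost its peak. At a score of 15, the end peaks of Pou2f3 for PCGF6 (14.3) and of Trpm5 (14.4) and Gfi1b (12.2) for AhCre H2AK119ub1 fell under the cut. The added losses were both at Pou2f3, whose KO peaks scored 12.6 for Villin H2AK119ub1 and 11.6 for CTCF. At 500 bp the Gfi1b H2AK119ub1 peak, 778 bases from the gene end, left the window. For lists of equal length the cause was not tested. For the promoter sequences no other window was tried. No paired analysis was possible because each group has 1 library and the labels carry no replicate numbers. Read depth is unknown, so a peak under a score of 10 cannot be told from none.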

Other observations

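Paralogs of the 10 genes, 15 in all, were described in the same way. PCGF6 was at a gene end of 8 of them in AhCre WT crypts (39.9% of all genes), and 1 of the 8 lost the peak in KO (64.4% of all genes with one). H2AK119ub1 was at the ends of 7 in AhCre WT (16% of all genes), among them Pou2f2 (33.6 in WT and 34.0 in KO), the paralog of Pou2f3, and Gng8 (41.5 and 36.1), a relative of Gng13. Vill, which belongs to the villin family with Avil, had 27.2 and 23.2. Among 6 immune cell markers RING1B was at no gene end in any crypt list, against 7.73% and 4.89% of all genes in AhCre and 14.2% and 7.61% in Villin (WT before KO), and H2AK119ub1 was at 1, Spi1, with 12.5 in AhCre WT and none in the other crypt lists. RING1B was counted likewise in other marker lists, AhCre WT before Villin WT. It was at 2 and 2 of 6 endothelial or mesenchymal, 2 and 3 of 8 enteroendocrine, and 1 and 1 of 5 Paneth genes. It was at 1 and 2 of 5 stem cell, 0 and 1 of 8 enterocyte, and 0 and 0 of 6 goblet genes. H2AK119ub1 in AhCre WT was at 3, 4, 1, 4, 0 and 2 of these genes, in the same order.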
